A study of Mus musculus with 12 samples.

Results

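The genotype effect on chow was taken as the difference between the 3 libraries labelled meKO chow and the 3 labelled WT chow, 6 of the 12 libraries of the series, over all 12339 genes of the count table. The RNA came from peritoneal macrophages drawn in with thioglycolate, an irritant that recruits inflammatory cells into the cavity. WT mice and meKO mice, the latter read from the series title as lacking protein kinase C epsilon in myeloid cells, were injected at 8 weeks of age with an AAV8 viral vector. The chow groups carried this vector too, so neither is an untreated control; they stayed on chow, and macrophages were elicited 4 weeks later. The labels describe 8 injected mice of each genotype with 4 of each on the high-fat diet (HFD), and name neither the recombinase line nor the deleted exons. They give each library its own number but do not say that each came from a single mouse, so p-values measure the spread between these libraries.

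Protein kinase C epsilon is a protein kinase C enzyme of the class that is switched on by the membrane lipid diacylglycerol and, unlike the conventional class, needs no calcium. In macrophages, these kinases pass on signals from Fc receptors and Toll-like receptors to phagocytosis, the oxidative burst and cytokine production. Diacylglycerol is made by phospholipase C and removed by diacylglycerol kinases, and other proteins that bind it, such as the RasGRP exchange factors, compete for the same signal.

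WT chow replicates 1 and 2 stood apart before any gene was considered. Total counts were 28714512 to 37282772 per chow library. Log2 CPM (counts scaled to library size with TMM factors) of WT chow replicates 1 and 2 correlated at r = 0.989 across genes, while WT chow replicate 3 correlated at 0.977 and 0.978 with these 2 and at 0.983 to 0.987 with the meKO chow libraries. The deviation of WT chow 1 and 2 from the chow mean rose with transcript length (Spearman rho across genes 0.593 and 0.628), and that of the other 4 chow libraries fell (−0.235 to −0.459). The 2883 genes with the longest transcripts had a median log2 fold change, meKO minus WT, of −0.32, and the 2886 with the shortest 0.21. Results are therefore given also without WT chow replicate 3, which leaves the 2 libraries that stand apart as the WT group, and after a correction for transcript length and GC content; the cause of the pattern was not tested. All 12 macrophage identity markers were in the table. Adgre1, which encodes F4/80, was at 597, 697 and 642 CPM in WT chow and 676, 597 and 620.3 CPM in meKO chow, with overlap. Cd68, a lysosomal glycoprotein, was at 2684, 2538 and 2980.3 CPM in WT chow and 3651, 3350.1 and 3421 CPM in meKO chow, higher in meKO without overlap.

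**Figure D1:**
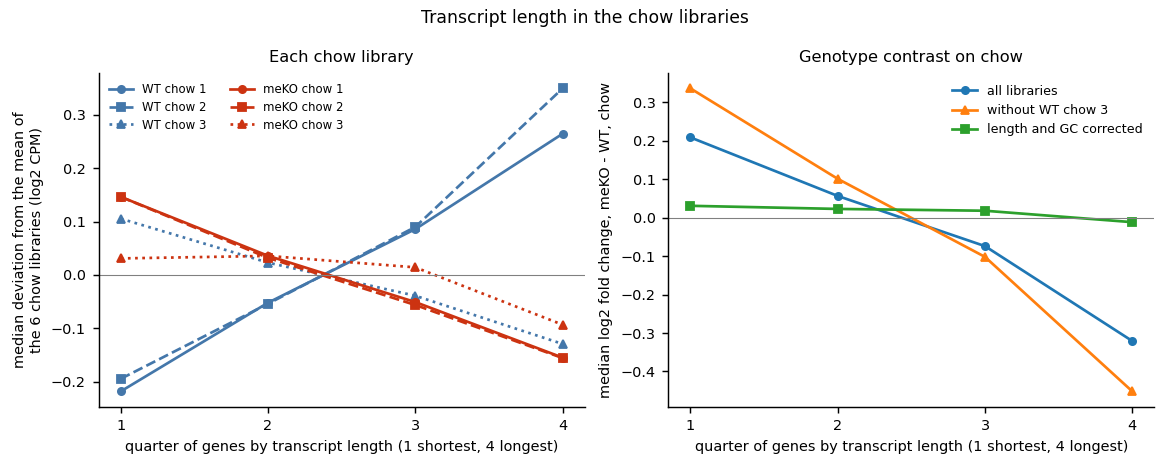
Median deviation of each chow library from the mean of the 6 chow libraries (left, log2 CPM) and median log2 fold change between genotypes on chow (right), for genes in 4 bins from the shortest to the longest transcripts. WT chow 1 and 2 run opposite to the other 4 libraries, and the contrast runs from 0.21 in the shortest bin to −0.32 in the longest, or from 0.03 to −0.01 after the correction.

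Few genes separated the genotypes on chow. In all, 10 genes, 0.081% of those tested, had an edgeR adjusted p under 0.05: S100a9, Gm8615, Gapdh-ps15 and Lipn rose in meKO (0.0324%), and Plxnd1, Cbx6, Sipa1l3, Kmt2e, Slc6a6 and Kat6a fell (0.0486%). At an unadjusted p under 0.05, 854 genes were higher (6.92%) and 1593 lower (12.9%). The 2 groups did not overlap in CPM for 1094 genes higher in meKO (8.87%) and 1022 lower (8.28%). These shares over all genes are the background for the counts of each gene list below. Of 11478 genes averaging 1 CPM or more, 96 differed by at least 1 on the log2 scale, 31 up and 65 down, and 6 of these 96 were among the 10 called.

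The number of calls depended on WT chow replicate 3. Without it, 981 genes were called higher (7.95%) and 1562 lower (12.7%), and all 10 genes above were among them. With the length and GC correction, 3 were called higher (0.0243%) and 1 lower (0.0081%): S100a9 and Slc6a6 were called again, and the cathepsin gene Ctsl was added. The other was Gm8615, which was matched to no transcript length and so was not itself corrected. DESeq2 called 145 higher (1.3%) and 418 lower (3.75%) of 11142 genes, including 9 of the 10; it gave Cbx6 no adjusted p. Leaving out WT chow 2, WT HFD 1 or WT HFD 2 left 2 calls. Gm8615 was called under each of the 21 alternatives other than the length and GC correction, and S100a9 under each of the 21 in which it was tested; the other 8 genes passed in 6 to 9 of 21 or 22. Of the 12 macrophage identity markers, 3 were higher and 1 lower at an unadjusted p under 0.05, none called by edgeR and 1 higher by DESeq2, and the groups did not overlap in 3 higher and 2 lower, with a median log2 fold change of −0.06, 5 of 12 positive.

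**Figure D2:**
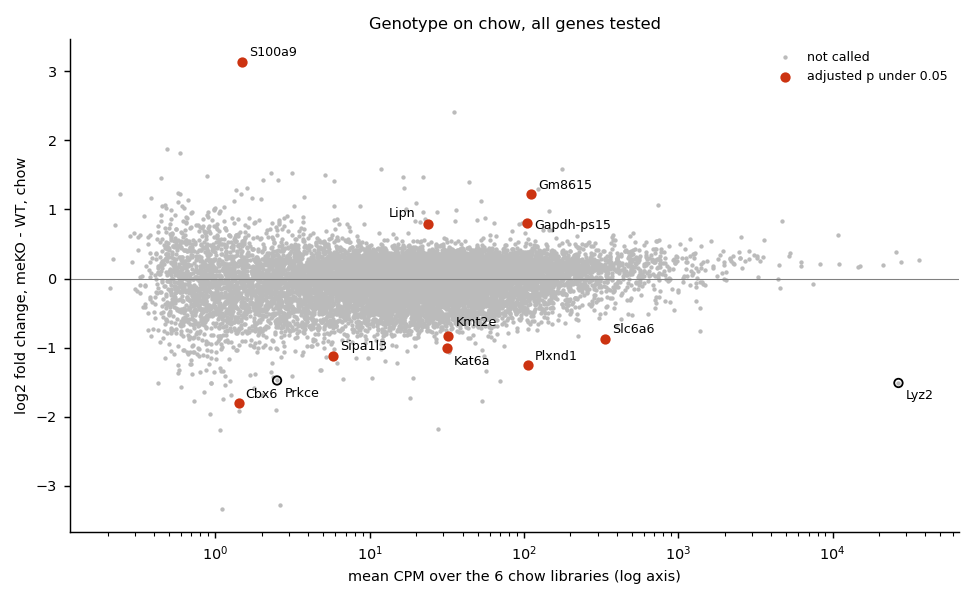
Log2 fold change between genotypes on chow against mean CPM over the 6 chow libraries (log axis), 1 point per gene, with the genes at an edgeR adjusted p under 0.05 in red and Prkce and Lyz2 circled. S100a9 has the largest rise of the called genes at 3.13 and Cbx6 the largest fall at −1.81; Prkce and Lyz2 lie among genes that were not called.

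The targeted gene itself was sparse. Prkce (Entrez 18754, chr17:86167785-86657919, GRCm38) was at 4.27, 4.44 and 2.35 CPM in WT chow and 1.42, 0.950 and 1.62 CPM in meKO chow, from 35 to 151 counts per library. The 2 groups did not overlap: every meKO library lay below the lowest WT library, WT chow 3. The log2 fold change was −1.47 ± 0.31 SE, with an edgeR adjusted p of 0.0794, which missed the threshold, and the exact two-sided permutation p was 0.1, the smallest that 3 libraries against 3 can give. Without WT chow 3 the log2 fold change was −1.70 (edgeR adjusted p = 0.00333), with the length and GC correction −1.13 (edgeR adjusted p = 0.133), and the DESeq2 adjusted p was 0.00167. Counts are per gene, so reads of the exons that remain cannot be told from those of the deleted ones. WT HFD libraries had 2.01, 2.89 and 2.53 CPM and meKO HFD libraries 1.78, 0.954 and 1.51 CPM.

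Lyz2 was lower in every meKO library than in any WT library without passing the test. Lyz2 (Entrez 17105, chr10:117277541-117282272) encodes the macrophage lysozyme, and a widely used myeloid Cre allele is inserted in this gene; the labels do not say whether it was used here. Its level was 33669, 31225 and 53835 CPM in WT chow and 20306, 69.3 and 21309.5 CPM in meKO chow. The meKO chow 2 library was far below the rest, at 2555 counts against 616560 or more in the other chow libraries. The log2 fold change was −1.51 ± 1.25 SE, with an edgeR adjusted p of 0.506 (exact two-sided permutation p = 0.1), and without meKO chow 2 it was −0.92 (edgeR adjusted p = 0.289). On HFD the WT libraries had 33351, 30482 and 37662 CPM and the meKO libraries 16293, 18865 and 18157 CPM. Its neighbour and near copy Lyz1 (chr10:117287795-117292868), the lysozyme of Paneth cells, was at 1310.4, 1024 and 2012 CPM in WT chow and 1424, 1206 and 1549.8 CPM in meKO chow, with overlapping groups and a log2 fold change of −0.06 ± 0.20 SE. The files do not state how reads shared by the 2 lysozyme genes were counted.

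**Figure D3:**
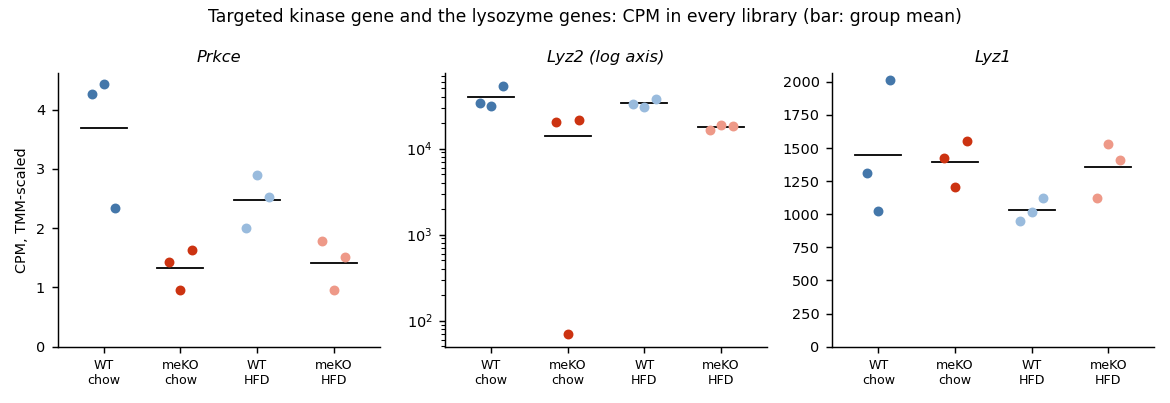
CPM of Prkce, Lyz2 (log axis) and Lyz1 in all 12 libraries by group, 1 point per library and a bar at the group mean. All meKO chow libraries lie below all WT chow libraries for Prkce and Lyz2, with meKO chow 2 at 69.3 CPM of Lyz2, and the groups overlap for Lyz1.

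No protein kinase C gene was called. Of 13 measured genes of the family, 5 had an unadjusted p under 0.05 and were lower in meKO, 0 were higher, and the median log2 fold change was −0.32, against −0.0012 over all genes. Prkcb, a calcium-dependent isoform of leukocytes, was at 60.4, 58.6 and 48.8 CPM in WT chow and 28.4, 42.2 and 21.8 CPM in meKO chow, log2 fold change −0.86 ± 0.19 SE, edgeR adjusted p = 0.0796. The groups did not overlap. Prkcd, a calcium-independent isoform of many blood cells, was at 329, 346 and 333 CPM in WT chow and 354, 347 and 329 CPM in meKO chow and overlapped, with a log2 fold change of 0.03 ± 0.10 SE. Prkd3, a protein kinase D gene, was also among those with an unadjusted p under 0.05, at a log2 fold change of −0.32 ± 0.13 SE, with overlapping groups. Without WT chow 3, 6 family members were called lower, Prkce and Prkcb among them, and DESeq2 called 2 lower; after the length and GC correction the family median was 0.01 and Prkcb stood at −0.79.

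The diacylglycerol list holds genes of its turnover and also the RasGRP exchange factors, which bind it. Of its 25 genes, 1 was higher and 6 lower at an unadjusted p under 0.05, with a median of −0.29. None was called by edgeR and 1 was called lower by DESeq2. Rasgrp3, a diacylglycerol-activated Ras and Rap exchange factor, was at 27.5, 30.4 and 28.3 CPM in WT chow and 22.7, 14.2 and 16.7 CPM in meKO chow (log2 fold change −0.69 ± 0.18 SE, edgeR adjusted p = 0.103). The diacylglycerol kinase Dgkd was lower at −0.46 ± 0.16 SE, and the phospholipase C gene Plcd1 was the single member higher, at 0.72 ± 0.25 SE. The median was −0.04 after the correction.

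S100a9 had the largest change of the called genes. It encodes a calcium-binding protein that pairs with S100a8 to form calprotectin, stored in neutrophils and monocytes. S100a9 (Entrez 20202, chr3:90692630-90695721) was at 0.368, 0.196 and 0.331 CPM in WT chow and 3.83, 1.87 and 2.28 CPM in meKO chow, 6 to 13 counts per WT library and 66 to 140 per meKO library. Every meKO library was above every WT library, with a log2 fold change of 3.13 ± 0.36 SE and an edgeR adjusted p of 0.00348. It was 3.22 without WT chow 3 and 2.79 after the length and GC correction, and passed in all 21 alternatives that kept it; the filter of 10 counts in each chow library removed it. On HFD the same gene was at 0.809, 0.757 and 0.963 CPM in WT and 3.80, 4.69 and 2.78 CPM in meKO (log2 fold change 2.15, edgeR adjusted p = 0.0229), and the interaction of genotype and diet had an edgeR adjusted p of 0.797. Its partner S100a8 (chr3:90669071-90670034) was at 7.81, 8.88 and 14.4 CPM in WT chow and 15, 13.4 and 13.1 CPM in meKO chow; the groups overlapped and the log2 fold change was 0.42 ± 0.24 SE (edgeR adjusted p = 0.329).

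Another 4 neutrophil genes, Retnlg, Cxcr2, Il1r2 and Lcn2, were higher in the meKO chow libraries without reaching the threshold. Of the 15 neutrophil markers, 9 are in the table; Ly6g, Mpo, Elane, Camp, Ngp and Stfa2l1 are not listed. Among the 9, 5 had an unadjusted p under 0.05 and were higher, none lower, and the median was 1.02. Each gene of the table reached 0.501 CPM in 6 libraries, and Cxcr2 did so only in the meKO libraries of both diets. It was therefore listed only through the genotype in which it was higher, and nothing can be read from its part in these counts. Retnlg, a resistin-like protein of neutrophils, was at 8.29, 7.71 and 10.2 CPM in WT chow and 24.4, 14.4 and 33.6 CPM in meKO chow, without overlap, with a log2 fold change of 1.47 ± 0.29 SE (its edgeR adjusted p = 0.076). Cxcr2, the receptor that brings neutrophils to CXC chemokines, was at 0.340, 0.261 and 0.165 CPM in WT chow and 1.01, 0.787 and 0.968 CPM in meKO chow, also without overlap (1.82 ± 0.34 SE, edgeR adjusted p = 0.0726). Il1r2, a decoy receptor for interleukin 1, and Lcn2, an iron-binding granule protein, stood at 1.24 and 1.02. Csf3r, the G-CSF receptor, and Mmp8, neutrophil collagenase, which supplied most of the summed marker level, stood at −0.28 and 0.11; Csf3r was lower in meKO without overlap, at 112, 119.5 and 98.5 CPM in WT chow and 85.3, 92.2 and 94 CPM in meKO chow. The summed level of the list was 157 to 201 CPM in WT chow and 166 to 194 CPM in meKO chow, and its part in the S100a9 result was not tested. In bulk RNA, more cells of a type and more RNA per cell cannot be told apart.

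Gm8615 had the smallest p. It is annotated as a transcribed pseudogene (Entrez 667410, chr5:149154128-149156192) and was at 63.9, 64.1 and 72.9 CPM in WT chow and 182, 144 and 142 CPM in meKO chow. All 3 meKO libraries lay above all WT libraries, with a log2 fold change of 1.22 ± 0.13 SE and an edgeR adjusted p of 0.00183. The call held in all 21 alternatives other than the length and GC correction, which was not applied to Gm8615. The Gm8615 transcript of 771 bases falls in the bin of shortest transcripts (64 to 2200 bases), whose median log2 fold change was 0.21. On HFD it was at 74.1, 71.8 and 87.9 CPM in WT and 76, 88.8 and 80.3 CPM in meKO. The difference between the diets in the genotype effect had an adjusted p of 0.056 in edgeR and 5.63e-06 in DESeq2. Gm8615 is 99.06% identical to the coding sequence of Gnpda1, a glucosamine-6-phosphate deaminase, with 7 mismatches over 747 aligned bases and an identical run of 200 bases, so the split of reads between the 2 is uncertain. Gnpda1 itself was at 281, 292 and 324 CPM in WT chow and 264, 224 and 209.6 CPM in meKO chow, lower in meKO without overlap (log2 fold change −0.36 ± 0.12 SE, edgeR adjusted p = 0.142).

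Gapdh-ps15, a pseudogene of the glycolytic glyceraldehyde-3-phosphate dehydrogenase Gapdh, rose. Gapdh-ps15 (Entrez 100042025, chrY:38619739-38620971) was at 74.7, 71.7 and 81.1 CPM in WT chow and 144, 144 and 108 CPM in meKO chow, or 0.80 ± 0.14 SE on the log2 scale with an edgeR adjusted p of 0.0484 and no overlap. Gm12070 (chr11:26785108-26787860), another pseudogene of the family, was at 159, 176 and 189 CPM in WT chow and 283, 294 and 221 CPM in meKO chow (0.61 ± 0.13 SE, edgeR adjusted p = 0.076), and Gapdh (chr6:125161852-125166467) at 29.5, 27 and 34.5 CPM in WT chow and 45.5, 49.6 and 37.7 CPM in meKO chow (0.55 ± 0.14 SE, edgeR adjusted p = 0.101). The 3 stretches below show why reads of these genes cannot be assigned with confidence. They are coding bases 211 to 300 of Gapdh, counted in its longest open reading frame (GENCODE vM21, GRCm38), and the aligned bases of both copies, 5′ to 3′, with capitals where a copy differs from Gapdh.
Gapdh: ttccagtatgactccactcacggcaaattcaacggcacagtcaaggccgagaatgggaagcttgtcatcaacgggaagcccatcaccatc
Gapdh-ps15: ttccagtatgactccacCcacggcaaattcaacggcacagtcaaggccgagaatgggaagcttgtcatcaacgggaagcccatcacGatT
Gm12070: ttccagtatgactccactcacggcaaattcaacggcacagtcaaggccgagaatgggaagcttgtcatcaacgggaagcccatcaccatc
Gapdh-ps15 differs at 3 of these 90 bases and at 5 of 1002 in all (99.5% identity), and shares a run of 411 bases with Gapdh. Gm12070 has 1 mismatch in 1002 bases and shares a run of 641. The count of Gapdh-ps15 can therefore hold reads of the parent gene.

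Genes of glycolysis stood on the same side. Of 21 measured, 12 had an unadjusted p under 0.05 and were higher in meKO and 2 lower, none called by edgeR and 5 higher by DESeq2, with a median of 0.32. Ldha, which turns pyruvate into lactate, was at 711, 732 and 752 CPM in WT chow and 1048, 1106 and 881 CPM in meKO chow (0.47 ± 0.10 SE, edgeR adjusted p = 0.0794). Tpi1, triose-phosphate isomerase, was at 396, 444 and 446 CPM in WT chow and 588, 742 and 523 CPM in meKO chow (0.53 ± 0.12 SE, edgeR adjusted p = 0.0868). Neither gene's groups overlapped. Hk2, the inducible hexokinase, and Pfkfb3, which makes an activator of phosphofructokinase, went the other way at −0.49 and −0.39. Without WT chow 3 the median was 0.21, with 4 called higher and 2 lower, and after the length and GC correction 0.25 with none called.

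Lipn was the called gene of lipid breakdown. It encodes a member of the acid lipase family best known from keratinocytes (Entrez 70166, chr19:34067058-34085946). Lipn was at 17.7, 18.6 and 16.7 CPM in WT chow and 28.8, 33.8 and 28.7 CPM in meKO chow, with no overlap, a log2 fold change of 0.78 ± 0.12 SE and an edgeR adjusted p of 0.0484. After the length and GC correction it was 0.51 (edgeR adjusted p = 0.182). The WT HFD libraries, at 38.1, 33.7 and 37.7 CPM, had a mean of 36.5 against 30.4 CPM in meKO chow. Of 16 lipase and lipid droplet genes, 3 were higher at an unadjusted p under 0.05 and none lower; Plin2, the coat protein of lipid droplets, was at 2380.4, 2078 and 1986 CPM in WT chow and 2890.5, 2712 and 2829.7 CPM in meKO chow (0.39 ± 0.11 SE, edgeR adjusted p = 0.105), and Lipa, the lysosomal acid lipase, stood at 0.23 ± 0.15 SE, without overlap, at 1898, 1921 and 1649 CPM in WT chow and 2103, 2316 and 2006 CPM in meKO chow. Hilpda, an inhibitor of the lipase ATGL that sits on lipid droplets, was at 67.6, 72.8 and 72.5 CPM in WT chow and 138, 136 and 97 CPM in meKO chow (0.80 ± 0.15 SE, edgeR adjusted p = 0.076).

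Plxnd1 fell in the meKO libraries. It encodes a receptor for semaphorins that guides axons, vessels and leukocytes (Entrez 67784, chr6:115954811-115995339). Plxnd1 was at 158, 175 and 113 CPM in WT chow and 77.9, 53.8 and 55.5 CPM in meKO chow, or −1.25 ± 0.20 SE on the log2 scale with an edgeR adjusted p of 0.0484. The groups did not overlap, and WT chow 3 was nearest to meKO. Of 19 plexin and semaphorin genes, 6 were lower at an unadjusted p under 0.05 and none higher, with a median of −0.39. Plxna2 stood at −0.88, Plxna1 at −0.57 and Plxna4 at −0.94. The genes of this list are long (median transcript 6217 bases, against 3367.5 over all genes), and its median was −0.51 without WT chow 3 and −0.11 after the length and GC correction, which left Plxnd1 at −0.82 (edgeR adjusted p = 0.133).

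Kat6a and Kmt2e, which act on histones, fell. Kat6a, a histone acetyltransferase (Entrez 244349, chr8:22859442-22943259), was at 45.5, 51.6 and 29.3 CPM in WT chow and 19.6, 20.7 and 22.5 CPM in meKO chow (−1.01 ± 0.17 SE, edgeR adjusted p = 0.0484). Kmt2e, a chromatin reader of the trithorax family (Entrez 69188, chr5:23433036-23504235), was at 46.3, 44.8 and 33 CPM in WT chow and 22.6, 25 and 21.9 CPM in meKO chow (−0.84 ± 0.14 SE, edgeR adjusted p = 0.0484). Neither gene's groups overlapped, and in both WT chow 3 was the lowest WT library. The list of histone acetylation and methylation holds 37 genes, most of them enzymes but also subunits such as Brpf1, Ing5 and Meaf6. At an unadjusted p under 0.05, 18 were lower and 1, the deacetylase Sirt2, was higher, with a median of −0.34. Kmt2a and Kmt2b, methyltransferases of histone H3 lysine 4, stood at −0.65 and −0.66, and the coactivator Ep300 at −0.57, with WT chow 1 and 2 at 82.2 and 81.8 CPM and WT chow 3, at 47.6 CPM, among the meKO libraries of 46.2, 45 and 51.5 CPM. Transcripts of this list are long as well (median 6487 bases). Without WT chow 3, 21 were called lower and 1 higher (median −0.46), and after the length and GC correction the median was −0.09, none were called, and Kat6a stood at −0.57 and Kmt2e at −0.49 (edgeR adjusted p = 0.0926 for each).

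Cbx6, a chromobox subunit of the Polycomb repressive complex PRC1, fell from a low level. Cbx6 (Entrez 494448, chr15:79823898-79834333) was at 2.38, 2.74 and 1.49 CPM in WT chow and 0.739, 0.679 and 0.449 CPM in meKO chow, with no overlap, a log2 fold change of −1.81 ± 0.29 SE and an edgeR adjusted p of 0.0484. On HFD the direction was the other way, with 0.583, 0.654 and 0.752 CPM in WT and 1.01, 0.954 and 0.873 CPM in meKO (log2 fold change 0.51); the interaction had an adjusted p of 0.189 in edgeR and 0.0106 in DESeq2. It was the 1 called gene of 10 whose direction differed between the diets. Of 17 PRC1 genes, 3 were lower at an unadjusted p under 0.05 (12.9% over all genes), with Phc3 at −0.55 and Phc2 at −0.35 beside Cbx6. The median was −0.17 (−0.03 after the correction).

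Sipa1l3 and Slc6a6 were the remaining genes that fell. Sipa1l3, a protein of the family of Rap GTPase-activating proteins (Entrez 74206, chr7:29320372-29519161), was at 9.25, 7.84 and 6.74 CPM in WT chow and 3.59, 3.42 and 4.01 CPM in meKO chow (−1.12 ± 0.18 SE, edgeR adjusted p = 0.0484). Of 20 regulators of Rap and Ras, 7 were lower at an unadjusted p under 0.05 and none higher, with a median of −0.29. Rapgef2, a Rap exchange factor, stood at −0.80 ± 0.16 SE, Sos1 at −0.62 and Nf1 at −0.50, and the median after the length and GC correction was −0.01. Slc6a6, the taurine transporter (Entrez 21366, chr6:91684048-91759063), was at 471, 496 and 327 CPM in WT chow and 248, 230.0 and 231 CPM in meKO chow (−0.87 ± 0.14 SE, edgeR adjusted p = 0.0484). Of the 6 genes that fell it alone also passed after the length and GC correction, at −0.53 (edgeR adjusted p = 0.0294).

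In 8 of the 10 called genes, all except Gm8615 and S100a9, the mean of the WT HFD libraries was nearer to meKO chow than to WT chow. The same held for 9270 of all 12339 genes (75.1%). Plxnd1, for example, averaged 149 ± 32.2 CPM (SD, n = 3) in WT chow, 62.4 ± 13.5 in meKO chow, 70.4 ± 11.6 in WT HFD and 65.5 ± 14 in meKO HFD. For Slc6a6 the 4 means were 432 ± 91.1, 236 ± 10.4, 232 ± 9.34 and 203 ± 26.6 CPM. The edgeR interaction test called none of these 10 genes (0.0162% of all genes were called); 9 of 10 had an unadjusted p under 0.05 (6.13% of all genes), a count that nothing can be read from since these genes were chosen by their chow effect, which is part of the interaction, and DESeq2 called 3, Gm8615, Lipn and Cbx6.

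**Figure D4:**
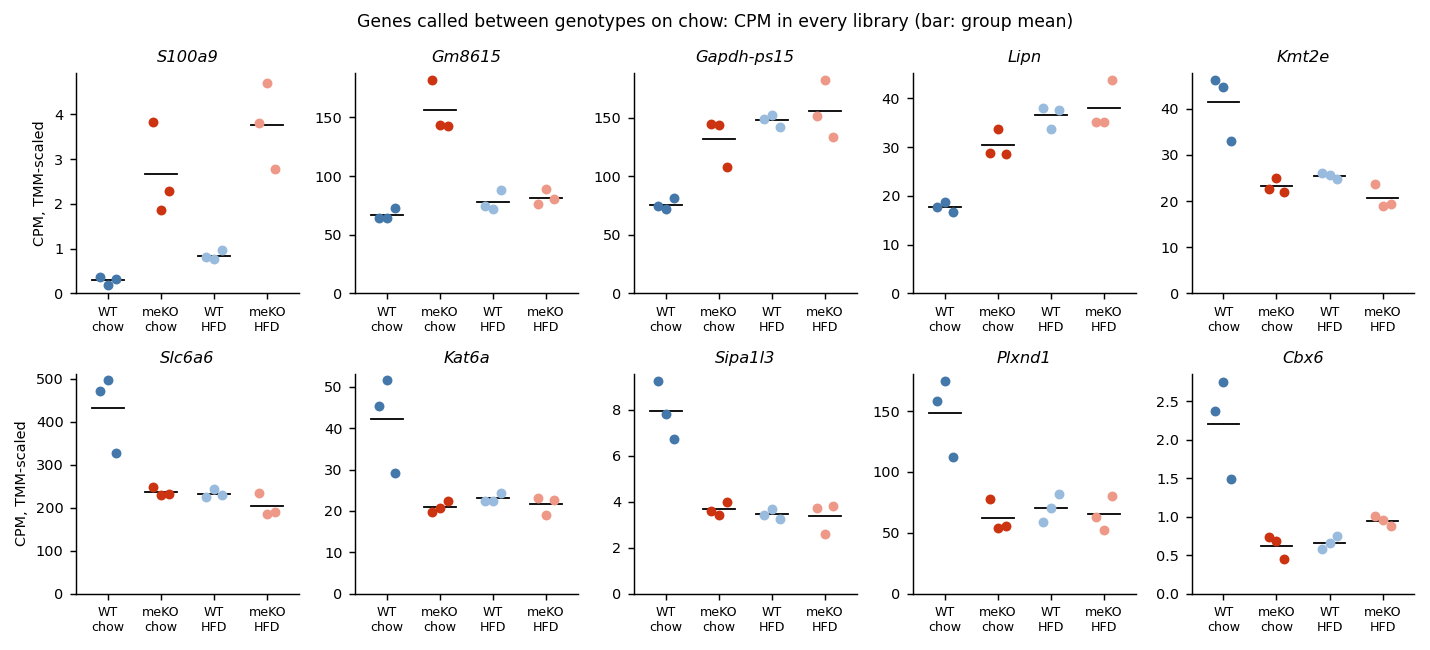
CPM of the 10 called genes in all 12 libraries by group, 1 point per library and a bar at the group mean; axes start at 0. For every gene the 3 meKO chow libraries lie apart from the 3 WT chow libraries; in Plxnd1, Kat6a and Slc6a6 the WT HFD libraries lie at the level of meKO chow, and in Gm8615 meKO chow stands alone.

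Among uncalled genes with a mean of 1 CPM or more and groups that did not overlap, the 6 with the smallest p in each direction had edgeR adjusted p of 0.0603 to 0.076. Adam19, a membrane metalloproteinase, was at 22, 24.5 and 16.7 CPM in WT chow and 8.68, 10.2 and 8.19 CPM in meKO chow (−1.22 ± 0.21 SE). Tgfb2, a transforming growth factor, was at 10.4, 10.9 and 8.07 CPM in WT chow and 5.12, 1.93 and 3.63 CPM in meKO chow (−1.46 ± 0.27 SE). Maf, a transcription factor of differentiated macrophages, was at 119.7, 143 and 117 CPM in WT chow and 78.3, 87.4 and 85.9 CPM in meKO chow (−0.59 ± 0.11 SE). Cblb, a ubiquitin ligase that restrains signalling, Mlxip, a glucose-sensing transcription factor, and Srrm2, a splicing factor, stood at −0.89, −0.83 and −0.76. Those higher in meKO were Ctsl, Retnlg, Gm12070, Hilpda, Cd24a, a surface glycoprotein at 63.1, 64.5 and 76 CPM in WT chow and 114, 102 and 136 CPM in meKO chow (0.79 ± 0.15 SE), and Bcap31, a chaperone of the endoplasmic reticulum at 0.55 ± 0.11 SE.

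Lysosomal genes were not called, and most had a positive log2 fold change, 25 of 30. Of these 30 genes, mostly hydrolases and cathepsins, 13 were higher at an unadjusted p under 0.05 and 1 lower (6.92% and 12.9% over all genes). None was called by edgeR and 7 were called higher by DESeq2. The groups did not overlap in 14, all higher (8.87% over all genes), and the median was 0.21. Ctsl, a cysteine protease, was at 7496, 9688 and 8261 CPM in WT chow and 13079, 14385 and 11878 CPM in meKO chow (0.63 ± 0.12 SE, edgeR adjusted p = 0.076). After the length and GC correction Ctsl was at 0.88 (edgeR adjusted p = 0.0222). Ctsd, an aspartyl protease, was at 19560.0, 22242 and 24880.0 CPM in WT chow and 29099, 31324 and 26808 CPM in meKO chow (0.39 ± 0.12 SE, edgeR adjusted p = 0.136). The groups did not overlap for either cathepsin. Grn, the precursor of granulins, was the member lower, at −0.43 ± 0.16 SE. The list median was 0.26 without WT chow 3, with 7 called higher and 1 lower, and 0.15 after the correction.

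Antioxidant genes and those of the respiratory chain had mostly positive log2 fold changes. In the NRF2 and antioxidant list, 7 higher and 1 lower of 22 passed an unadjusted p of 0.05, none by edgeR after adjustment and 3 by DESeq2, all higher, with a median of 0.36. Gpx1, glutathione peroxidase, was at 1795, 2029 and 2277 CPM in WT chow and 3665, 3159.6 and 2469 CPM in meKO chow (0.61 ± 0.15 SE, edgeR adjusted p = 0.0968), without overlap, and Slc7a11, the cystine importer, was the member lower, at −0.77 ± 0.26 SE. All 47 listed subunits of the respiratory chain and ATP synthase had a positive log2 fold change, with a median of 0.31. Of these, 14 had an unadjusted p under 0.05 and none was called by edgeR or DESeq2. The list holds only part of the nuclear-encoded subunits and none encoded by mitochondrial DNA. Ndufa9, a subunit of complex I, was at 64.8, 66.5 and 82.6 CPM in WT chow and 99.4, 99.5 and 87.4 CPM in meKO chow (0.42 ± 0.13 SE, edgeR adjusted p = 0.133). Of 65 cytosolic ribosomal protein genes, 61 were positive and 2 passed at an unadjusted p under 0.05 (none called by edgeR, 2 by DESeq2), with a median of 0.19. Transcripts in these lists are short (median 1232 and 1109 bases), and the medians were 0.51 and 0.47 without WT chow 3, with 19 and 16 called higher, and 0.12 and −0.00029 after the length and GC correction, with none called.

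The 2 ribosomal genes were Rpl29 and Rpl3. Rpl29 (chr9:106428889-106431568) was at 129.9, 67.2 and 97.5 CPM in WT chow and 211, 197 and 171 CPM in meKO chow (0.98 ± 0.21 SE, edgeR adjusted p = 0.0794), without overlap. Rpl3 (chr15:80077781-80083406) was at 16.1, 16.4 and 23.3 CPM in WT chow and 20, 42.3 and 46.1 CPM in meKO chow (0.96 ± 0.25 SE, edgeR adjusted p = 0.103), with meKO chow 1 among the WT libraries. Both genes have processed copies in the genome, so reads may be split between them.

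No gene of cholesterol synthesis was called by edgeR, and 1 was called lower by DESeq2. Of 26 genes, 5 were lower at an unadjusted p under 0.05 (12.9% over all genes) and none higher, with a median of −0.18. Srebf2, the transcription factor that drives the pathway, was at 35.8, 28.1 and 24.6 CPM in WT chow and 15.8, 16.5 and 19.8 CPM in meKO chow (−0.77 ± 0.16 SE, edgeR adjusted p = 0.0776). The groups did not overlap. Hmgcs1, which makes the precursor HMG-CoA, stood at −0.14 ± 0.13 SE with overlapping groups of 69.5, 56.6 and 61.6 CPM in WT chow and 48.6, 57 and 64.8 CPM in meKO chow. The median was −0.08 without WT chow 3 and −0.09 after the correction.

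Genes of cholesterol export and lipoprotein uptake went in both directions, none called by edgeR; DESeq2 called 1 higher and 2 lower of the efflux list and 1 in each direction of the receptors. LXR targets and efflux genes gave 4 higher and 3 lower of 20 at an unadjusted p under 0.05, with a median of 0.07. Nr1h3, which encodes LXR alpha, was at 59.9, 62.5 and 68.3 CPM in WT chow and 89.6, 84.3 and 74.4 CPM in meKO chow (0.38 ± 0.12 SE), and Abca9, an ABC transporter of macrophages, at 119.6, 108 and 73.1 CPM in WT chow and 55.1, 50.7 and 68.3 CPM in meKO chow (−0.79 ± 0.18 SE), both without overlap. Abca1 and Abcg1, the exporters of cholesterol to lipoproteins, stood at −0.29 ± 0.25 SE and 0.06 ± 0.18 SE and overlapped. Scavenger and lipoprotein receptors gave 2 higher and 3 lower of 17, with a median of −0.09; Sorl1, a sorting receptor, was at 23.6, 17.6 and 11.1 CPM in WT chow and 6.35, 7.49 and 9.12 CPM in meKO chow (−1.19 ± 0.23 SE, edgeR adjusted p = 0.076), and Cd36, which takes up oxidised LDL, stood at 0.30 ± 0.15 SE. The medians of these lists were 0.20 and 0.04 after the length and GC correction.

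No gene of the inflammation lists was called by edgeR. DESeq2 called 1 gene lower in each of the interferon, alternative activation and MHC lists and 0 in the cytokine and chemokine receptor lists. The cytokine and chemokine list, which also holds Ptgs2, Nfkbia and Tnfaip3, gave 1 higher and 1 lower of 26 at an unadjusted p under 0.05. Its median was 0.06. Csf1, the macrophage growth factor, stood at −0.48 ± 0.17 SE and the chemokine Ccl6 at 0.32 ± 0.14 SE. Tnf and Il1b, at 3.03, 2.38 and 2.71 CPM in WT chow and 2.71, 3.96 and 2.87 CPM in meKO chow and at 4.07, 3.72 and 6.25 CPM in WT chow and 1.81, 4.32 and 5.22 CPM in meKO chow respectively, overlapped. Interferon-stimulated genes gave 1 higher and 3 lower of 27 (6.92% and 12.9% over all genes; median 0.01), with Stat2, part of the interferon-activated complex, at −0.46 ± 0.13 SE. Genes of alternative activation gave 0 higher and 2 lower of 20 (median −0.15), among them the cytokine signalling inhibitor Socs3 at −0.50 ± 0.15 SE; Arg1 and Mrc1, 2 usual markers of that state, stood at 0.39 ± 0.26 SE and −0.31 ± 0.16 SE with overlapping groups. Myeloid chemokine and chemoattractant receptors gave 2 higher and 2 lower of 17 (median 0.16). Cxcr2, in the table only through the meKO libraries, was among the higher, and Cx3cr1, the fractalkine receptor, was lower at −0.65 ± 0.25 SE. The list of MHC class II and other antigen presentation genes gave 1 higher and 1 lower of 14 (median −0.04). Ciita, the master activator of the class II genes, was at 14.2, 10.7 and 8.56 CPM in WT chow and 4.71, 3.18 and 7.29 CPM in meKO chow (−1.15 ± 0.26 SE, edgeR adjusted p = 0.0794).

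Genes of clearance of dying cells, matrix breakdown and the cell cycle were not called by edgeR; DESeq2 called 2 clearance genes lower, 1 matrix gene higher, 2 immediate early or heat shock genes lower and 0 cell cycle genes. At an unadjusted p under 0.05, 6.92% of all genes were higher and 12.9% lower. By the same measure apoptotic cell clearance gave 0 higher and 3 lower of 19 (median −0.10). Elmo1 and Dock1, which together activate Rac during engulfment, stood at −0.50 ± 0.15 SE and −0.59 ± 0.17 SE. Matrix metalloproteinases and their inhibitors gave 1 higher and 0 lower of 18 (median −0.05); Timp3, an inhibitor, was at 0.820, 0.751 and 0.793 CPM in WT chow and 1.23, 3.28 and 1.24 CPM in meKO chow. Cell cycle genes gave 1 higher and 2 lower of 28 (median −0.12), with the proliferation marker Mki67 at −0.89 ± 0.36 SE and the replication clamp Pcna at 0.29 ± 0.11 SE. Immediate early and heat shock genes, which respond to handling of cells, gave 2 higher and 3 lower of 22 (median 0.19), with Egr1 at −0.92 ± 0.25 SE and Hspb1 at 1.13 ± 0.44 SE.

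**Figure D5:**
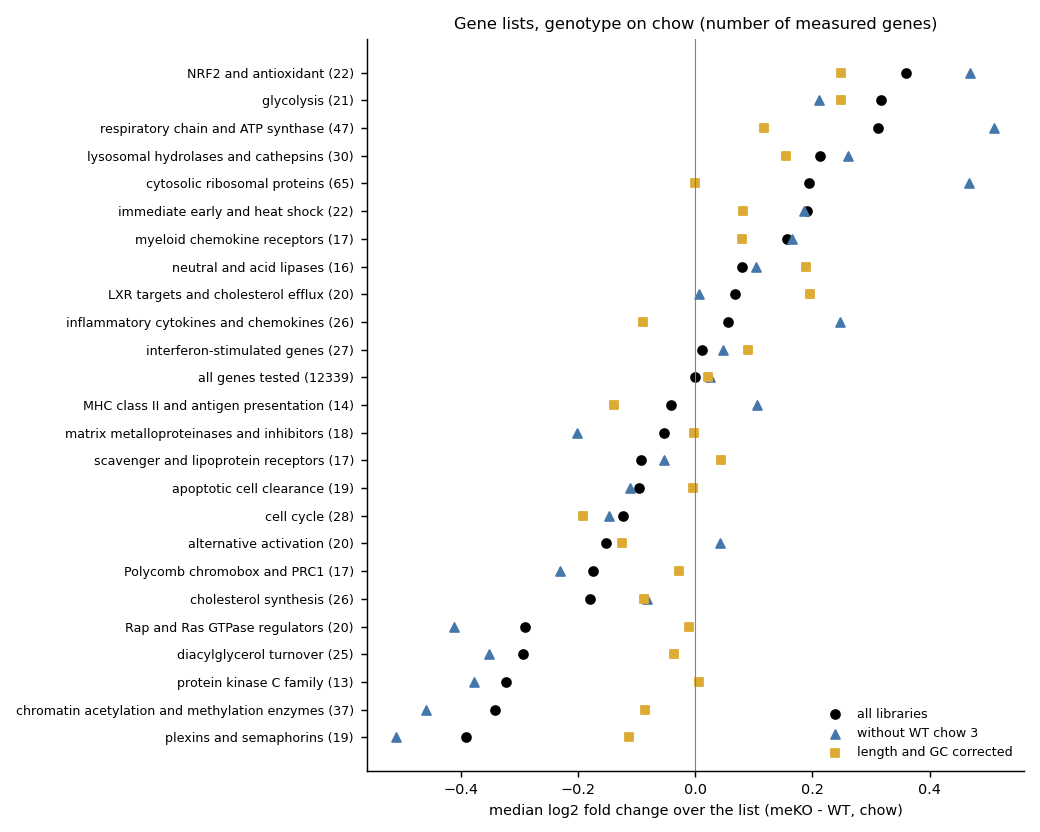
Median log2 fold change between genotypes on chow of each function list and of the immediate early and heat shock list (number of measured genes in brackets) and of all genes, with all libraries (circles), without WT chow 3 (triangles) and with the length and GC correction (squares). Cell marker lists are not plotted. Of the lists shown, plexins and semaphorins lie lowest at −0.39 and the antioxidant list highest at 0.36; their corrected medians lie between −0.19 and 0.25.

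Markers of other cells that a lavage can hold were present in both genotypes. The summed level of mast cell markers was 222 to 264 CPM in WT chow and ran from 60.3 in meKO chow 3 to 369 in meKO chow 1; the mast cell chymase Cma1 was at 78.1, 83.6 and 101 CPM in WT chow and 150.3, 93.4 and 18 CPM in meKO chow. Eosinophil markers summed to 25.7 to 37.3 CPM in WT and 29.4 to 66.0 in meKO, and B cell markers to 219 to 276 and 154 to 276. The dendritic cell sums were 45.7 to 70.5 and 33.8 to 61.6 CPM, those of T and NK cells 28.8 to 52.3 and 35.9 to 42.7, and those of mesothelium and fibroblasts 54.9 to 97.7 and 55.3 to 101.0. Resident large peritoneal macrophage genes summed to 3950.4 to 4391 CPM in WT and 3274 to 3731 in meKO, without overlap. Much of this sum came from Lyz1, whose values are given above, and Fn1, fibronectin, and each overlapped between the genotypes. Fn1 was at 2157, 1797 and 1227 CPM in WT chow and 1040.2, 727 and 1311 CPM in meKO chow. Red blood cell genes were at or below 30.1 CPM in every chow library. Among the genes of these 8 lists edgeR called none, and DESeq2 called 1, a mast cell gene. At an unadjusted p under 0.05 there were 7, against 19.8% of all genes. Higher in meKO were 1 of 4 eosinophil and 2 of 14 mesothelium and fibroblast genes. Lower were 1 of 10 mast cell, 1 of 10 dendritic cell and 2 of 14 resident macrophage genes. Among 10 B cell, 15 T and NK cell and 3 red blood cell genes there were 0.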

How the data were processed

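RNA of thioglycolate-elicited macrophages was sequenced from 12 libraries, 3 per group. The authors deposited whole-number counts per Entrez gene; libraries followed Illumina's TruSeq protocol per the labels, and the submitters' processing notes name mm10 and DESeq2. The aligner, counting tool and strand setting are not given in the sources used here, so reads of overlapping genes and near copies are uncertain. Each listed gene reached 0.501 CPM in 6 libraries, so the deposited table looks filtered. The 186 genes without a symbol held 0.440% of counts. Chow replicates differed beyond sampling noise (chi-square per degree of freedom at least 24.5 in 6 pairs).

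Groups came from sample titles. edgeR 4.0.16 (R 4.3.3; TMM, filterByExpr, which kept all 12339 genes, robust quasi-likelihood F test) was fitted to 4 group means over 12 libraries; p-values are two-sided, and a call means an adjusted p (Benjamini-Hochberg, over all genes) under 0.05. SE is the size of the log2 fold change divided by the square root of F. The length and GC correction subtracted splines with 5 degrees of freedom each, for the longest GENCODE vM21 transcript of 11532 genes (93.5%). Positions are RefSeq GRCm38.p6. CPM ranges cover counting and replicate error only as far as 3 libraries show. Alternatives were other scalings and filters, DESeq2 1.42.0, limma-voom 3.58.1 with and without library quality weights, non-robust dispersions, the chow libraries alone, and each library left out.

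Named genes were all called genes; Prkce, Lyz1, Lyz2, S100a8, S100a9 and Rpl29; the 6 uncalled genes in each direction with the smallest p among those with non-overlapping groups and at least 1 CPM; up to 2 genes in each direction from each of the function lists; and 2 from each of 10 cell lists. Other genes of the lists were named after their values were seen. Some items are not reported here. The comparison, the lists and the members were chosen with earlier results of these data known.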

Additional observations from a re-analysis of the deposited data

Results flagged for a closer look

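Rpl29, a protein of the large ribosomal subunit, differed in its genotype effect between the diets by a test of the interaction. The effect on chow minus that on HFD was −4.24 on the log2 scale (edgeR adjusted p = 2.53e-05; DESeq2 adjusted p = 7.49e-37). Its level was 129.9, 67.2 and 97.5 CPM in WT chow and 211, 197 and 171 CPM in meKO chow, 6.51, 6.89 and 6.65 CPM in WT HFD and 204, 322 and 221 CPM in meKO HFD. The 3 WT HFD libraries lay far below the other 9 libraries.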

How the results depend on the processing

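The 10 calls became 2 with library totals, 2 with limma-voom, 2 with non-robust dispersions, 5 from the 6 chow libraries alone, 4 with the length and GC correction, 563 with DESeq2 and 4047 with library quality weights; leaving out 1 library at a time gave 2 to 2543, the highest without WT chow 3 and the lowest without WT chow 2, WT HFD 1 or WT HFD 2. The cause was not tested. Single named genes kept their side of the threshold in 704 values, lost it in 40 and gained it in 104. In the leave-one-out fits these were 886, 73 and 63. Gm8615 passed in all 21 alternatives other than the length and GC correction, which was not applied to it. S100a9 passed in all 21 other than the filter of 10 counts in each chow library, which removed it. The fit without a filter repeated the main fit. With library totals 728 genes in place of 1094 were higher without overlap. Prkce passed with DESeq2 (−1.46), library quality weights (−1.73) and with WT chow 3 left out (leave-one-out −1.70 to −1.27). The interaction of named genes gave 5 calls in DESeq2 (Gm8615, Lipn, Cbx6, Hilpda, Rpl29) and 1 in edgeR. Genes near 0 changed sign: Lyz1 (0.16 with quality weights; leave-one-out −0.25 to 0.27), Cd22 (0.060 after the length and GC correction; leave-one-out −0.28 to 0.14), Cd209a (leave-one-out −0.49 to 0.17) and Cma1 (0.0052 with median-of-ratios factors and 0.0052 with at least 10 counts per chow library, 0.0036 with DESeq2; leave-one-out −0.64 to 0.48). With the length and GC correction list medians moved to 0.0058 for protein kinase C genes, −0.037 for diacylglycerol turnover and 0.20 for LXR targets. They moved to 0.043 for scavenger receptors, −0.11 for plexins, −0.086 for the histone acetylation and methylation list and −0.029 for Polycomb genes. Those of lipases, Rap and Ras regulators and immediate early genes moved to 0.19, −0.011 and 0.081. Quality weights gave −0.22 for metalloproteinases and 0.22 for glycolysis, and library totals 0.0049 for lipases. Leave-one-out medians ran from 0.0070 to 0.17 (LXR targets), −0.12 to 0.072 (scavenger receptors), 0.040 to 0.17 (chemokine receptors), −0.23 to 0.042 (alternative activation), 0.049 to 0.16 (lipases), 0.18 to 0.41 (glycolysis), 0.078 to 0.47 (ribosomal proteins), 0.17 to 0.47 (antioxidant), 0.091 to 0.20 (immediate early) and −0.31 to 0.11 (MHC class II). No paired analysis was possible because replicate numbers only follow the order of the samples. Depth limits low genes such as Prkce and S100a9 in WT chow.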

Other observations

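Some genes with large fold changes sat at separate levels that did not follow the genotype labels in every chow library. These genes, like the others below, were chosen after their values were seen, and none was called. H2-T23, a nonclassical MHC class I gene on chromosome 17, was at 197, 29.5 and 38.4 CPM in WT chow and 40.1, 250.2 and 505 CPM in meKO chow, and Rps18, a ribosomal gene on the same chromosome, at 14.1, 1.44 and 1.92 CPM in WT chow and 1.78, 17.4 and 34.2 CPM in meKO chow. WT chow 1, meKO chow 2 and meKO chow 3 were high in both genes and the other 3 chow libraries low. On HFD, H2-T23 was at 35.6, 33.9 and 43.3 CPM in WT and 260.5, 608 and 295 CPM in meKO. Rps18 was at 2.17, 2.07 and 2.17 CPM in WT HFD and 20.8, 62.6 and 21.8 CPM in meKO HFD. Every meKO HFD library was above every WT HFD library in both genes. Prkce lies on chromosome 17 too (86167785-86657919), and whether its position bears on these levels was not tested.

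Klhdc4 on chromosome 8 was at 10.5, 11.8 and 11.2 CPM in WT chow and 77.5, 45.9 and 54.5 CPM in meKO chow, with no overlap (2.41 ± 0.56 SE on the log2 scale, edgeR adjusted p = 0.103). On HFD it was at 13.8, 13.7 and 15.8 CPM in WT and 15.5, 99 and 98.3 CPM in meKO, so 1 meKO HFD library sat at the WT level. Pianp on chromosome 6 was at 87.1, 77.5 and 81.8 CPM in WT chow and 21, 21.5 and 29.6 CPM in meKO chow (−1.77 ± 0.49 SE, edgeR adjusted p = 0.124) and at 13.8, 14.2 and 29.8 CPM in WT HFD and 11.4, 9.0 and 37.1 CPM in meKO HFD. Its 3 WT chow libraries, WT chow 3 included, were above all other libraries. Gm14295 and Gm14305, 2 neighbouring genes of chromosome 2, were at 0.141, 1.76 and 4.16 CPM in WT chow and 0.192, 0.217 and 0.173 CPM in meKO chow and at 0.509, 3.79 and 9.98 CPM in WT chow and 0.493, 0.516 and 0.449 CPM in meKO chow; WT chow 1 was at the meKO level in both.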
